A study of Homo sapiens with 8 samples.

Results

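Transcripts of the ERBB receptors, their ligands and the receptor inhibitor ERRFI1 were followed in HSC-5, an established line from a human squamous cell carcinoma of the skin, with and without guide RNAs against EZH2. The group consisted of 10 genes, matched by symbol among the 20294 genes of the count table: the receptor genes EGFR, ERBB2 and ERBB3, the ligand genes AREG, EREG, HBEGF, TGFA, BTC and NRG1, and ERRFI1. All 10 were present and all 10 were among the 13124 genes that passed the filter on low counts. Every group carried a Cas9 transgene delivered by lentivirus and was selected with G418. The 2 control libraries carried the empty vector, 3 libraries carried the guide sgEZH2-1 and 3 carried the guide sgEZH2-2. All cells were grown in DMEM with serum, and RNA was taken directly after selection and after a western blot for EZH2 protein, per the design text. Neither a cloning step nor separate cultures for the libraries of a group are named in the labels, so the p-values reflect only how far these libraries lie apart, and that spread may be technical. A control library that clustered apart was left out by the authors, so the spread between controls may be understated.

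ERBB receptors are tyrosine kinases of the cell surface that work as pairs. EGFR binds the EGF-like ligands encoded by AREG, EREG, HBEGF, TGFA and BTC, while ERBB3, whose own kinase is weak, binds neuregulins such as NRG1 and signals through a partner, often ERBB2, which has no known ligand. In keratinocytes these receptors drive proliferation and migration through the MAP kinase and PI3 kinase routes, most ligands are cut from the membrane by proteases before they act, and ERRFI1 is a feedback inhibitor that binds the kinase domain.

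Each library held between 12.6 M and 15.5 M counts. Levels are given in CPM, the usual scaled unit of counts, on library totals adjusted by the TMM method. The EZH2 transcript was at 82.7 and 84.1 CPM in the controls, 48.0 to 56.4 CPM with sgEZH2-1 and 65.1 to 73.9 CPM with sgEZH2-2. It passed the test with sgEZH2-1 (log2 fold change -0.64, adjusted p = 0.000529, edgeR) and not with sgEZH2-2 (-0.28, adjusted p = 0.0699). Of 14 keratinocyte markers, 13 had a mean of at least 1 CPM in each group, with summed levels of 4459 to 4657 CPM in the controls, 4011 to 4515 CPM with sgEZH2-1 and 3989 to 4069 CPM with sgEZH2-2. KRT14 was the exception, at 0.474, 0.618 and 0.797 CPM on average. KRT5 was the largest part of the sums, at 2029, 1871 and 1578 CPM on average. Against the controls, 4 of the 14 were called higher and 2 lower with sgEZH2-1 (42.9%, where 20.8% of all genes were called). With sgEZH2-2, 0 were called higher and 4 lower (28.6%, against 8.68%). Summed markers of fibroblasts (9 genes) were at 6.13 to 7.24 CPM in the controls, 5.02 to 8.96 CPM with sgEZH2-1 and 11.0 to 14.1 CPM with sgEZH2-2. Nearly all of this was COL1A1, at 6.59, 6.50 and 12.1 CPM on average in these groups. COL1A2 was at 0 counts in every library. Leukocyte markers (9 genes) summed to 11.7 to 18.5 CPM, most of it CD68, with CD3E, CD3D and MS4A1 at 0 counts throughout. Endothelial markers (7 genes) summed to 177 to 184 CPM in the controls, 76.6 to 81.9 CPM with sgEZH2-1 and 143 to 160 CPM with sgEZH2-2, nearly all of it CDH5, with KDR at 0 counts. Melanocyte markers (7 genes) summed to 27.9 to 33.1 CPM, most of it MITF, with TYR, DCT and SOX10 at 0 counts. The part of these marker differences in the results below was not tested.

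The promoters of 4 members are shown because these are the EGFR gene itself, the ligand genes TGFA and EREG that differed between the guides, and AREG, the neighbour of EREG. Each sequence is the 250 bases before a RefSeq transcript start (build GRCh38.p14), written 5′ to 3′ on the strand of the gene. EGFR and TGFA have 2 RefSeq starts each, of which the most upstream was used. The TGFA window lies within the gene span given below, which comes from another annotation (GENCODE). Capitals mark matches on either strand to the TATA box (TATAAA), the cAMP response element (TGACGTCA), the GC box (GGGCGG) and the CCAAT box (CCAAT). The AP-1 site (TGANTCA) was also searched and was not found in these windows, and none of the letters searched overlap in them.

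EGFR, chr7:55018767-55019016, plus strand: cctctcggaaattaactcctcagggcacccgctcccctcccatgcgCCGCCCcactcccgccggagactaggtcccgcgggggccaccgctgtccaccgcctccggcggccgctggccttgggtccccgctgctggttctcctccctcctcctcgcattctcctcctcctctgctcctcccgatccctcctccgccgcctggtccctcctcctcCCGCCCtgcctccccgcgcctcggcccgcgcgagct
TGFA, chr2:70553827-70554076, minus strand: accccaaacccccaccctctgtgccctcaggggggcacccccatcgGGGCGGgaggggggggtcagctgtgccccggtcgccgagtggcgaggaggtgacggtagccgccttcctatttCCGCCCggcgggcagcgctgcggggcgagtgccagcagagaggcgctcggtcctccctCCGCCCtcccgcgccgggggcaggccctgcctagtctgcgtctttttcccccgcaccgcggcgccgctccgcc
EREG, chr4:74364895-74365144, plus strand: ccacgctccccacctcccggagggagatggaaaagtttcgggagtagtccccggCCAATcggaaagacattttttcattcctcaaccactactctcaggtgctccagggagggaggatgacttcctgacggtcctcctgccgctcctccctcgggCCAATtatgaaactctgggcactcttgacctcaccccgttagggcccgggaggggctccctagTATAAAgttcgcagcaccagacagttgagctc
AREG, chr4:74444886-74445135, plus strand: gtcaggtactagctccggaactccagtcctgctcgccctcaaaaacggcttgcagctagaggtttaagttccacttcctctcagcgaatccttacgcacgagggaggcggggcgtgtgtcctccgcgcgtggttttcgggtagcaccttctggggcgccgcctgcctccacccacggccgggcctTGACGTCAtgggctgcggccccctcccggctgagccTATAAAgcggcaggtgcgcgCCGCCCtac

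The EGFR window held GC boxes 204 and 36 bases before the start, and the TGFA window held them 204, 131 and 73 bases before it. Neither holds TATAAA. The EREG and AREG windows each hold TATAAA, 32 and 29 bases before the start. AREG has the cAMP response element 65 bases and a GC box 9 bases before its start, while EREG has CCAAT boxes 196 and 95 bases before its own. Among 35114 RefSeq promoter windows of the same length, 10.7% held TATAAA, 1.65% TGACGTCA, 42.6% GGGCGG, 32% CCAAT and 6.57% TGANTCA. CpG dinucleotides numbered 25 in the EGFR window, 27 in TGFA, 23 in AREG and 11 in EREG, where the median over all windows was 11. The BTC window held none of the 5 motifs and 8 CpG dinucleotides, while that of HBEGF held 5 GC boxes. ERBB3 and NRG1 had no entry in the promoter table used. These matches are descriptions of letters and not of bound sites.

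With both guides pooled, the members split into 2 that were lower than the controls and 8 that did not pass the test. EGFR and NRG1 were the 2 that fell, with NRG1 at 63.2% of the control mean under sgEZH2-1 and 65.4% under sgEZH2-2, and EGFR at 82.4% and 84.6%. No member rose. Over all 13124 genes tested, 4.36% were called in either direction, 3.76% higher and 0.594% lower. The median log2 fold change was 0.037 over the 10 members and -0.0043 over all genes. The libraries of the guides and the controls did not overlap for 2 of the 10 members, against 19.9% of all genes. Genes were tested by edgeR's quasi-likelihood F test with Benjamini-Hochberg adjustment over all genes at a threshold of 0.05, and the adjusted p values below come from it. Both single-guide comparisons use the same 2 control libraries, so agreement between them is not independent evidence.

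**Figure D1:**
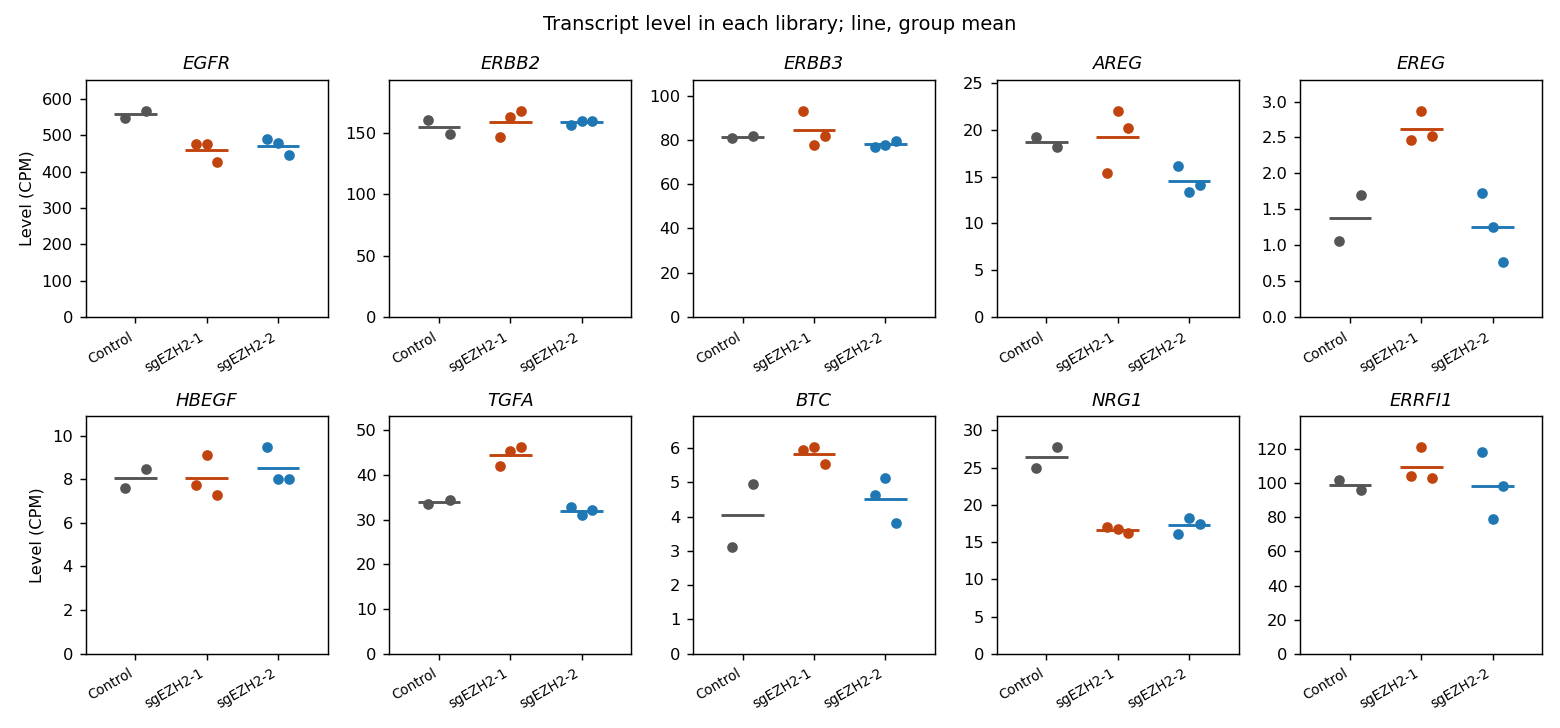
Level of each of the 10 members in every library, in CPM on a linear axis that starts at 0, with 1 point per library and a line at the group mean (2 control, 3 sgEZH2-1 and 3 sgEZH2-2 libraries). For EGFR and NRG1 all guide points lie below both control points, and for TGFA, EREG and BTC the sgEZH2-1 points lie above all others.

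Among the receptors, EGFR (chromosome 7, 55019021 to 55211628, plus strand, GRCh38) was at 547 and 568 CPM in the controls. It was at 476, 475 and 428 CPM with sgEZH2-1 and at 490, 478 and 447 CPM with sgEZH2-2. Every guide library was below both controls, and the guides overlapped each other. In bulk libraries, fewer cells with the transcript and less transcript per cell cannot be told apart. The group means were 558 ± 14.6 CPM (SD, n = 2) in the controls, 460 ± 27.8 CPM (SD, n = 3) with sgEZH2-1 and 472 ± 22.1 CPM (SD, n = 3) with sgEZH2-2. EGFR fell in the pooled comparison with a log2 fold change of -0.26 (SE 0.063, 95% interval -0.40 to -0.12, adjusted p = 0.0489, edgeR). It fell under sgEZH2-1 by 0.28 on the log2 scale (SE 0.061, adjusted p = 0.00938, edgeR) and under sgEZH2-2 by 0.24 (SE 0.061, adjusted p = 0.0360, edgeR). The direct difference between the guides was -0.038 (95% interval -0.16 to 0.084, adjusted p = 0.652, edgeR). The pooled call lies close to the threshold and was lost in 11 of 13 alternatives, among them leaving out any single library, with adjusted p from 0.0525 to 0.301. The call with sgEZH2-2 was lost in 7 of 12 alternatives, among them without either control or any sgEZH2-2 library (adjusted p from 0.0633 to 0.161), and that with sgEZH2-1 only without the second control (adjusted p = 0.0528).

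ERBB2 (chromosome 17, 39687914 to 39730426, plus strand), the preferred partner of the other receptors, was at 161 and 150 CPM in the controls. With sgEZH2-1 it was at 147, 163 and 168 CPM, and with sgEZH2-2 at 156, 160 and 160 CPM. The groups overlapped. The pooled log2 fold change was 0.034 with a 95% interval of -0.11 to 0.18 (adjusted p = 0.861, edgeR), an interval that leaves out the pooled fall estimated for EGFR. Exons of ERBB2 overlap those of MIEN1 by 571 bases and of PGAP3 by 194 bases on the other strand, and the strand setting of the counting is not given in the sources used here, so its counts are uncertain to that extent.

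ERBB3 (chromosome 12, 56076799 to 56103505, plus strand), the neuregulin receptor with the weak kinase, was at 80.8 and 81.6 CPM in the controls. It was at 93.1, 77.8 and 81.9 CPM with sgEZH2-1 and at 77.0, 77.9 and 79.6 CPM with sgEZH2-2. The first sgEZH2-1 library stood above the rest, and all sgEZH2-2 libraries lay just under the controls. The log2 fold change was 0.053 with sgEZH2-1 (95% interval -0.12 to 0.22, adjusted p = 0.669, edgeR) and -0.056 with sgEZH2-2 (95% interval -0.23 to 0.11, adjusted p = 0.726, edgeR). ERBB4, the remaining receptor of the family, had 0 counts in both controls and 5 counts over the 6 guide libraries, with at most 3 in a single library, where 3 counts over both controls correspond to 0.102 CPM. Its presence was not detectable at this depth in the controls.

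Summed per kilobase of exon, the 3 receptors came to 68.6 ± 0.441 CPM per kb (SD, n = 2) in the controls, 61.5 ± 1.70 (SD, n = 3) with sgEZH2-1 and 61.7 ± 1.50 (SD, n = 3) with sgEZH2-2. EGFR made up 64.9% ± 1.28 (SD, n = 2) of that sum in the controls. Its share was 59.7% ± 1.99 (SD, n = 3) with sgEZH2-1 and 61.0% ± 1.41 (SD, n = 3) with sgEZH2-2. EGFR remained the most abundant receptor transcript per length in each group. These sums and shares depend on the length used. Per kilobase of the longest transcript, the control means were 56.8 CPM for EGFR, 31.5 for ERBB2 and 13.7 for ERBB3. The EGFR share is smaller on that length.

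Of the ligands, NRG1 (chromosome 8, 31639386 to 32767959, plus strand), which encodes neuregulin 1, the ligand of ERBB3 and ERBB4, was at 25.0 and 27.7 CPM in the controls. It was at 17.1, 16.7 and 16.2 CPM with sgEZH2-1 and at 16.0, 18.3 and 17.5 CPM with sgEZH2-2. All 6 guide libraries lay below both controls with a gap wider than the range within any group, and the guides overlapped each other. NRG1 fell with sgEZH2-1 by 0.66 on the log2 scale (SE 0.089, adjusted p = 0.000612, edgeR) and with sgEZH2-2 by 0.61 (SE 0.089, adjusted p = 0.00198, edgeR). Both calls held in 12 of 12 alternatives. The pooled value of -0.64 (SE 0.087, adjusted p = 0.00256, edgeR) missed the threshold only without the second control, where it was -0.56 (adjusted p = 0.0646, edgeR). The guides differed by -0.050 (95% interval -0.24 to 0.14, adjusted p = 0.700, edgeR). NRG1 is transcribed from several start sites, and the gene count does not separate its isoforms.

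TGFA (chromosome 2, 70447280 to 70554193, minus strand) encodes transforming growth factor alpha, an EGFR ligand that keratinocytes make themselves. It was at 33.5 and 34.3 CPM in the controls, at 41.9, 45.3 and 46.1 CPM with sgEZH2-1 and at 32.8, 31.0 and 32.1 CPM with sgEZH2-2. The sgEZH2-1 libraries were above all 5 others, and the sgEZH2-2 libraries lay just under the controls. TGFA rose with sgEZH2-1 by 0.39 on the log2 scale (SE 0.072, 95% interval 0.23 to 0.55, adjusted p = 0.00377, edgeR), to 131% of the control mean. With sgEZH2-2 the value was -0.085 (95% interval -0.25 to 0.077, adjusted p = 0.547, edgeR). The direct difference between the guides was 0.48 (SE 0.064, 95% interval 0.33 to 0.62, adjusted p = 0.000841, edgeR). Both calls held in 12 of 12 alternatives.

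EREG (chromosome 4, 74365143 to 74388751, plus strand), which encodes epiregulin, was scarce, with 15 and 26 counts in the controls, 32, 42 and 36 counts with sgEZH2-1 and 25, 16 and 10 counts with sgEZH2-2. In CPM these were 1.07 and 1.70 in the controls, 2.47, 2.87 and 2.52 with sgEZH2-1 and 1.73, 1.26 and 0.763 with sgEZH2-2. The sgEZH2-1 libraries were above all others, while those of sgEZH2-2 overlapped the controls. EREG was higher with sgEZH2-1 than with sgEZH2-2 by 1.05 on the log2 scale (SE 0.30, 95% interval 0.40 to 1.71, adjusted p = 0.0293, edgeR). Against the controls the value was 0.91 with sgEZH2-1 (95% interval 0.19 to 1.64, adjusted p = 0.0733, edgeR) and -0.14 with sgEZH2-2 (95% interval -0.93 to 0.65, adjusted p = 0.865, edgeR). The call between the guides was lost in 5 of 12 alternatives: with DESeq2 and without any library of either guide other than its first (adjusted p from 0.0533 to 0.0961).

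AREG (chromosome 4, 74445134 to 74455009, plus strand), which encodes amphiregulin, was the most abundant ligand transcript per length in the controls. It was at 19.2 and 18.1 CPM there, at 15.4, 22.0 and 20.2 CPM with sgEZH2-1 and at 16.2, 13.3 and 14.1 CPM with sgEZH2-2. The sgEZH2-1 libraries lay on both sides of the controls, and all sgEZH2-2 libraries lay below them. The value against the controls was 0.042 with sgEZH2-1 (95% interval -0.28 to 0.36, adjusted p = 0.869, edgeR) and -0.36 with sgEZH2-2 (95% interval -0.69 to -0.035, adjusted p = 0.172, edgeR). The difference between the guides, 0.40 (95% interval 0.11 to 0.70, adjusted p = 0.0532, edgeR), missed the threshold and passed it without the first library of sgEZH2-1 (0.54, adjusted p = 0.00623) or of sgEZH2-2 (0.49, adjusted p = 0.0416).

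BTC (chromosome 4, 74744759 to 74794686, minus strand), which encodes betacellulin, was at 3.12 and 4.96 CPM in the controls, at 5.95, 6.02 and 5.53 CPM with sgEZH2-1 and at 4.63, 5.11 and 3.81 CPM with sgEZH2-2. The sgEZH2-1 libraries were above all others, and the controls themselves lay far apart. The log2 fold change with sgEZH2-1 was 0.52 (95% interval 0.056 to 0.99, adjusted p = 0.107, edgeR), and 0.90 (adjusted p = 0.0293, edgeR) without the second control. HBEGF (chromosome 5, 140332843 to 140346631, minus strand), which encodes heparin-binding EGF-like growth factor, was at 7.60 and 8.48 CPM in the controls and between 7.28 and 9.46 CPM in the guide libraries. All 3 groups overlapped, and the pooled value was 0.040 (95% interval -0.27 to 0.35, adjusted p = 0.929, edgeR).

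The inhibitor gene ERRFI1 (chromosome 1, 8004404 to 8026308, minus strand) was at 102 and 95.8 CPM in the controls, at 104, 121 and 103 CPM with sgEZH2-1 and at 118, 79.0 and 98.2 CPM with sgEZH2-2. The sgEZH2-2 libraries were spread widely around the controls, with an SD of 19.6 CPM against 4.43 CPM in the controls. The log2 fold change was 0.15 with sgEZH2-1 (95% interval -0.16 to 0.46, adjusted p = 0.489, edgeR) and -0.0049 with sgEZH2-2 (95% interval -0.31 to 0.30, adjusted p = 0.990, edgeR).

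Counted by guide, 1 member (TGFA) rose and 2 (EGFR and NRG1) fell with sgEZH2-1, where 20.8% of all genes were called, 11.3% higher and 9.51% lower. With sgEZH2-2, 0 members rose and 2 (EGFR and NRG1) fell, where 8.68% of all genes were called, 6.18% higher and 2.50% lower. Between the guides, 2 members (EREG and TGFA) were higher with sgEZH2-1 and 0 were lower, where 21.9% of all genes were called, 10.4% higher and 11.5% lower. Groups did not overlap for 6 members with sgEZH2-1 (48.0% of all genes), for 5 with sgEZH2-2 (39.7%) and for 3 between the guides (42.2%). The members' shares called with each guide and between the guides were 30%, 20% and 20%, which stand on 3, 2 and 2 genes, so nothing particular to the members is read from them. The plot of fold changes shows the 3 contrasts side by side.

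**Figure D2:**
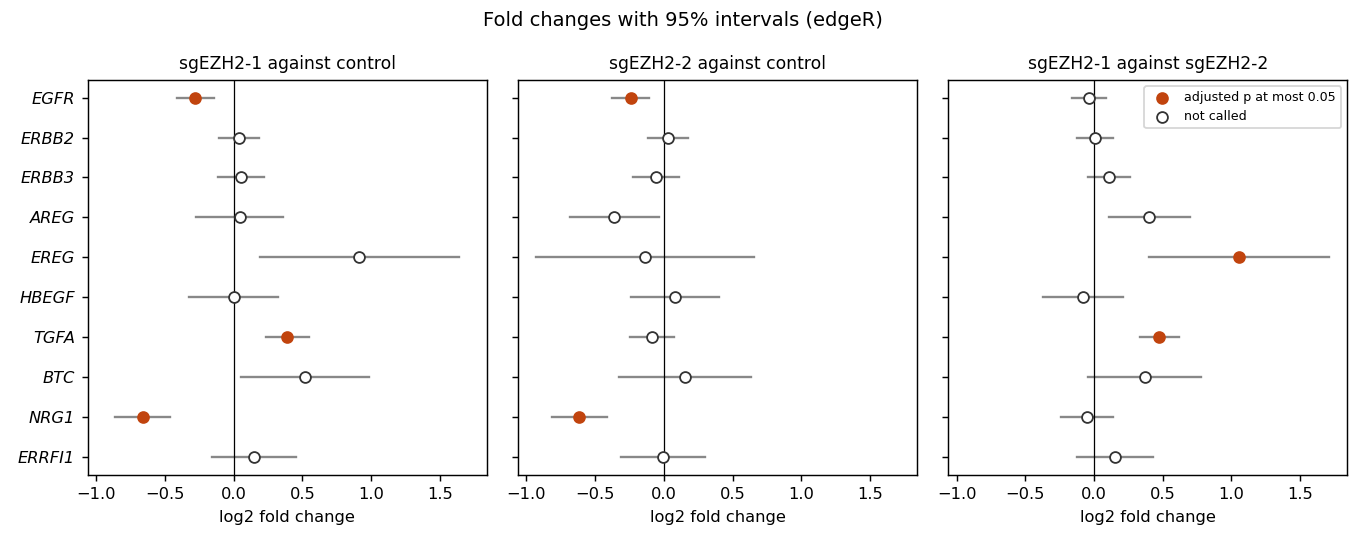
Log2 fold change of each member (points) with its 95% interval (lines) for each guide against the controls and for the guides against each other, on a shared axis. Filled points had an adjusted p of at most 0.05: EGFR, TGFA and NRG1 with sgEZH2-1, EGFR and NRG1 with sgEZH2-2, and EREG and TGFA between the guides.

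EPGN, EREG, AREG and BTC lie within 486.2 kb of chromosome 4. EPGN, which encodes epigen, another EGFR ligand, was at 1.99 and 1.70 CPM in the controls, at 3.17, 2.67 and 2.73 CPM with sgEZH2-1 and at 2.42, 1.34 and 1.45 CPM with sgEZH2-2. The sgEZH2-1 libraries were also above all others here, and the sgEZH2-2 libraries overlapped the controls. Between the guides, the log2 differences were 1.05 for EREG, 0.70 for EPGN (adjusted p = 0.0706, edgeR), 0.40 for AREG and 0.37 for BTC (adjusted p = 0.179, edgeR), and only that of EREG passed the test. Across the 8 libraries, Pearson's r of log2 levels was 0.85 for EREG with TGFA, 0.84 for EREG with BTC, 0.57 for EREG with AREG and 0.14 for AREG with BTC. It was 0.88 for EGFR with NRG1 and -0.61 for ERBB2 with ERBB3. These values describe 8 libraries that share groups and scaling, and no test was made of them.

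Other family genes were checked as well. NRG2, a further neuregulin gene, was at 0.852 and 0.978 CPM in the controls, at 2.16, 1.92 and 2.59 CPM with sgEZH2-1 and at 2.76, 2.60 and 3.20 CPM with sgEZH2-2. Every guide library was above both controls. NRG2 rose by 1.27 on the log2 scale with sgEZH2-1 (adjusted p = 0.00815, edgeR) and by 1.63 with sgEZH2-2 (adjusted p = 0.00374, edgeR), and the pooled value was 1.46 (SE 0.28, adjusted p = 0.0155, edgeR). The pooled call was lost without either control (adjusted p = 0.131 and 0.191), and the call with sgEZH2-1 without the first control (adjusted p = 0.0673). So NRG1 and NRG2 passed the test in opposite directions with both guides, though per kilobase NRG2 in the guide groups, at 0.492 and 0.631 CPM per kb, was still below NRG1, at 1.47 and 1.52. NRG4 had a pooled value of -0.016 (adjusted p = 0.979, edgeR) and shares 1917 exonic bases with FBXO22 on the other strand, so its count is uncertain. EGF had 0.69 (adjusted p = 0.399, edgeR), and NRG3 had 0 counts in the controls and 1 over the guide libraries.

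Levels of different genes are compared per kilobase of exon. In the controls the order was EGFR at 44.5 ± 1.16 CPM per kb (SD, n = 2), ERRFI1 at 23.6 ± 1.06, ERBB2 at 15.1 ± 0.782, AREG at 11.3 ± 0.480, ERBB3 at 8.98 ± 0.0590 and TGFA at 6.83 ± 0.111. HBEGF at 2.66 ± 0.206, NRG1 at 2.33 ± 0.169, BTC at 1.43 ± 0.460 and EREG at 0.241 ± 0.0779 followed (SD, n = 2 for each). Among the members no 2 neighbours in this order overlapped between the control libraries, while NRG4 overlapped BTC and EPGN, and NRG2 overlapped EREG and EGF. The order depends in part on the length used. Per kilobase of the longest transcript, NRG1 at 4.44 CPM came before HBEGF at 3.37 in the controls. With sgEZH2-1 the libraries of AREG overlapped those of ERBB3, and ERBB3 those of TGFA. NRG1 came after BTC and EPGN in that group, and its libraries overlapped those of EPGN. Per kilobase of the longest transcript NRG1 came first of these with sgEZH2-1, at 2.81 CPM, before EPGN at 2.39 and BTC at 2.07. With sgEZH2-2, AREG overlapped ERBB3 and BTC overlapped NRG1. The 6 ligands summed to 24.8 ± 0.544 CPM per kb (SD, n = 2) in the controls, 27.3 ± 2.65 (SD, n = 3) with sgEZH2-1 and 21.4 ± 1.29 (SD, n = 3) with sgEZH2-2. NRG1 made up 9.36%, 5.43% and 7.14% of the ligand sum in these groups in that order, and TGFA 27.5%, 33.0% and 30.1%. AREG was the largest share in each group, at 45.7%, 42.5% and 41.1%. The ligand sums and shares also depend on the length used.

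**Figure D3:**
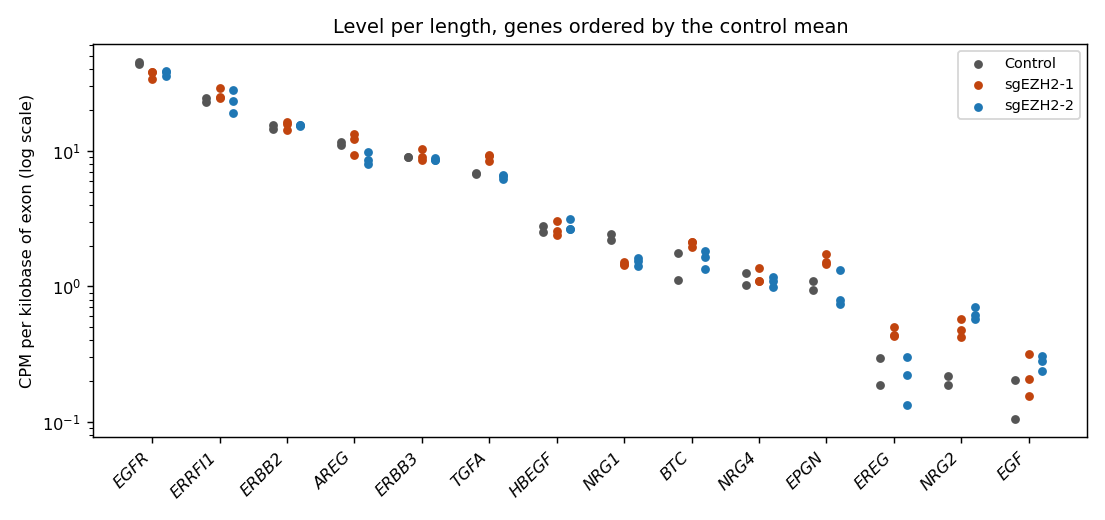
Level per kilobase of merged exon (CPM per kb, log axis) of the members and of EPGN, NRG2, NRG4 and EGF in each library, ordered by the control mean, with 1 point per library and colours for the 3 groups. EGFR is at the top in every group and EREG, NRG2 and EGF are at the bottom.

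Among 10634 genes with a mean of at least 5 CPM, those most like EGFR over the 8 libraries were CPLANE1 (Pearson's r of log2 CPM 0.974) and CRYBG1 (0.972). For NRG1 they were FAM120AOS (0.980) and KIAA1671 (0.979), for ERBB2 UHRF1 (0.977) and PUF60 (0.971), and for ERBB3 SNRPD1 (0.934) and VIRMA (0.906). These are the highest of many values over 8 libraries and are given as a description.

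The machinery around the receptors was counted from 5 lists with 122 genes, of which 116 were tested. In the pooled comparison 7 were higher and 2 lower (7.76%, against 4.36% of all genes). With sgEZH2-1, 21 were higher and 14 lower (30.2%, against 20.8% of all genes), and with sgEZH2-2, 21 were higher and 3 lower (20.7%, against 8.68%). Of the 12 genes for ligand shedding, 1 passed in the pooled comparison, 4 with sgEZH2-1 and 2 with sgEZH2-2, each of them higher. These are 8.33%, 33.3% and 16.7% of the list, where 4.36%, 20.8% and 8.68% of all genes were called in either direction. Called higher were 3.76%, 11.3% and 6.18% of all genes. The list's median log2 fold change was 0.12, 0.15 and 0.028 in these comparisons, and that of all genes -0.0043, -0.0094 and 0.00091. ADAM19, a membrane protease that can release neuregulin, was at 7.67 and 8.22 CPM in the controls, at 16.0, 15.9 and 17.9 CPM with sgEZH2-1 and at 13.5, 15.7 and 16.2 CPM with sgEZH2-2. All guide libraries were above the controls, and the pooled rise of 0.99 on the log2 scale (SE 0.13, adjusted p = 0.00194, edgeR) held in 13 of 13 alternatives. The related proteases ADAM9 and ADAM12 rose with sgEZH2-1, by 0.56 (adjusted p = 0.000292, edgeR) and 0.50 (adjusted p = 0.000798, edgeR), and both were also higher with sgEZH2-1 than with sgEZH2-2, by 0.55 and 0.64. TIMP3, 1 of the 4 genes higher with sgEZH2-1, encodes an inhibitor of metalloproteases and rose by 0.23 (adjusted p = 0.0273, edgeR). That call was lost without the first control or the second sgEZH2-1 library. The protease genes ADAM17 (pooled -0.067, adjusted p = 0.684, edgeR) and ADAM10 (pooled 0.12, adjusted p = 0.514, edgeR) did not pass the pooled test.

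Of 21 tested genes for receptor turnover and inhibition, 4 rose and 2 fell with sgEZH2-1 (28.6%, against 20.8% of all genes), and 2 rose and 2 fell with sgEZH2-2 (19.0%, against 8.68%). The list's median log2 fold change was -0.0094 with sgEZH2-1 and -0.028 with sgEZH2-2. LRIG1, which encodes a membrane protein that promotes loss of ERBB receptors, was at 77.7 and 77.6 CPM in the controls, at 56.8, 56.9 and 53.4 CPM with sgEZH2-1 and at 90.6, 95.3 and 99.0 CPM with sgEZH2-2. The guides lay on opposite sides of the controls with no overlap. LRIG1 fell with sgEZH2-1 by 0.48 (adjusted p = 0.000538, edgeR) and rose with sgEZH2-2 by 0.29 (adjusted p = 0.0177, edgeR), the latter call being lost in 4 of 12 alternatives, among them without either control. The guides differed by -0.77 (SE 0.057, adjusted p = 2.23e-05, edgeR). A link between LRIG1 and the receptor levels was not tested. CBLB, a ubiquitin ligase of the receptors, had a pooled value of -0.37 (adjusted p = 0.0401, edgeR), lost in 8 of 13 alternatives, among them without either control. With sgEZH2-1 its value was -0.44 (adjusted p = 0.00212, edgeR), a call that held in 12 of 12 alternatives. With sgEZH2-2 it was -0.29 (adjusted p = 0.0340, edgeR), a call lost in 9 of 12. SH3KBP1, an adaptor in receptor endocytosis, rose by 0.48 (adjusted p = 0.00225, edgeR), from 52.2 ± 0.697 CPM (SD, n = 2) to 73.9 ± 1.70 and 71.5 ± 2.63 CPM (SD, n = 3 each). CAV1, which encodes the caveolar coat protein, averaged 569 CPM in the controls, 627 CPM with sgEZH2-1 and 381 CPM with sgEZH2-2. Its log2 fold change with sgEZH2-2 was -0.58 (adjusted p = 0.000727, edgeR). It was higher with sgEZH2-1 than with sgEZH2-2 by 0.72 (adjusted p = 8.33e-05, edgeR).

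Of 41 tested adaptors and kinases, 3 rose and 4 fell with sgEZH2-1 (17.1%), and 3 rose and 0 fell with sgEZH2-2 (7.32%). Over all genes these shares were 20.8% and 8.68%. In the pooled comparison 4.88% of the list was called, against 4.36% of all genes, and between the guides 22.0%, against 21.9%. The list lay near the share of all genes each time, so nothing particular to it is read from these counts. The adaptor gene GAB2 rose with both guides, from 14 counts over both controls to 99 over the sgEZH2-1 and 58 over the sgEZH2-2 libraries (log2 fold change 2.29, adjusted p = 0.00137, and 1.57, adjusted p = 0.0283, edgeR). The latter call was lost in 5 of 12 alternatives, among them without either control.

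The list of MAP kinase feedback and output genes, of which 38 of 40 were tested, held 3 passing genes in the pooled comparison, 2 higher and 1 lower. These 3 are 7.89% of the list, against 4.36% of all genes. With sgEZH2-1, 9 rose and 8 fell (44.7%, against 20.8% of all genes), and with sgEZH2-2, 13 rose and 1 fell (36.8%, against 8.68%). Compared directly, 19 of the 38 were lower and 5 higher with sgEZH2-1 than with sgEZH2-2 (63.2%), where 11.5% of all genes were lower and 10.4% higher (21.9%), with a median log2 difference of -0.27 against -0.0069 over all genes. The count of 19 ranged from 13 to 20 when single libraries were left out. EGR1, an early response transcription factor gene, was at 668 and 658 CPM in the controls, at 544, 614 and 595 CPM with sgEZH2-1 and at 925, 926 and 997 CPM with sgEZH2-2. The sgEZH2-2 libraries were above all others. EGR1 differed between the guides by -0.70 (SE 0.053, adjusted p = 2.67e-05, edgeR), EGR2 by -1.47 (adjusted p = 0.000110, edgeR) and ETV5 by -0.71 (adjusted p = 0.000104, edgeR). CCND1, the cyclin D1 gene, went the other way, at 0.61 (adjusted p = 0.000114, edgeR). The lists were compiled with earlier results of these data known. They describe transcripts and not the activity of the kinases.

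**Figure D4:**
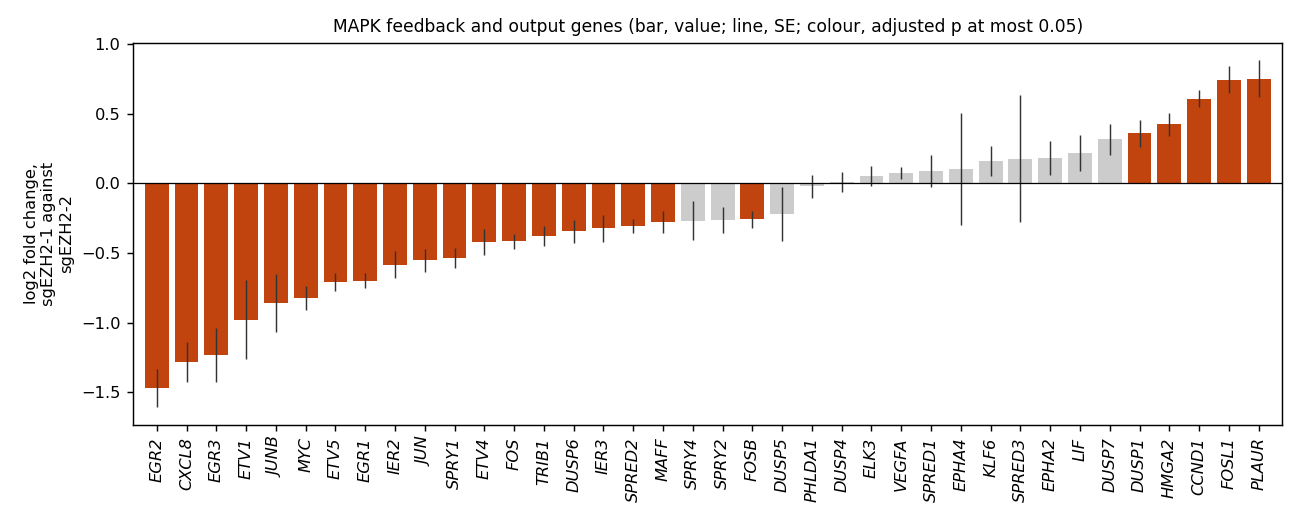
Log2 difference of 38 MAP kinase feedback and output genes between sgEZH2-1 and sgEZH2-2 (bars, with lines for the SE), coloured where the adjusted p was at most 0.05. Of the bars, 19 are coloured below 0 and 5 above it, from EGR2 at -1.47 upward.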

How the data were processed

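RNA of 8 HSC-5 libraries was sequenced after TruSeq Stranded mRNA preparation, per the labels' protocols. The authors deposited whole-number read counts per gene, without normalization. FastQC, STAR and DESeq with build hg38 are named in the submitters' processing notes, and the counting tool, annotation, strand setting and versions are not given by the sources used. Columns name the group of each library but no replicate number, so libraries are named by their order within a group.

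Genes were kept with filterByExpr of edgeR 4.0.16 (R 4.3.3) at a minimum count of 10, which left 13124 of 20294. Each library held between 12.6 M and 15.5 M counts. Replicates differed by more than sampling noise in every pair. The pooled comparison was a fit of 2 levels over all 8 libraries, and the comparisons of single guides were contrasts of a fit of 3 groups. Two-sided quasi-likelihood F tests were adjusted by Benjamini-Hochberg over all genes tested, and SE were derived from the F statistic. Ratios of low counts cover counting error only. Exon lengths and positions came from GENCODE release 29 on GRCh38, where 16 of 16 family genes matched by symbol, and promoters from RefSeq (GRCh38.p14). The tests were checked on simulated data.

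The alternatives were DESeq2 1.42.0, its size factors within edgeR, library totals alone, no filter, the fit of 3 groups for the pooled comparison, each library left out, and the longest transcript for lengths. Tests of the other pathway genes under these settings were added after seeing the data. Members and lists were chosen with earlier results of these data known. The rule for named genes took all members, the other family genes, EZH2, up to 4 genes with the smallest adjusted p per list and comparison, of which the text gives a selection, and the 2 genes most like EGFR, ERBB2, ERBB3 and NRG1. Markers named by their level were added from the marker lists, and ADAM10 and ADAM17 from the list for ligand shedding. Some genes of the lists are counted but not reported by name here.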

Additional observations from a re-analysis of the deposited data

Results flagged for a closer look

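ERBB3 was at 93.1 CPM in the first sgEZH2-1 library, which stood farther from the nearest of the 6 guide libraries than a critical value for 1 outlying sample allows. Chance gives such a result in about 1 of 20 groups. The other 5 guide libraries lay between 77.0 and 81.9 CPM. The guides differed directly for EREG, with a log2 difference of 1.05 (adjusted p = 0.0293, edgeR), and for TGFA, with 0.48 (adjusted p = 0.000841, edgeR), both higher with sgEZH2-1 in 3 of 3 libraries than in any of sgEZH2-2. Both values are direct tests of the difference between the guides.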

How the results depend on the processing

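Of 490 log2 values of the 10 members under the alternatives, 423 kept their direction and their side of the threshold, 25 lost a call, 3 gained one and 39 changed sign; 0 of those that changed sign had passed the test. The causes were not tested.

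The number of members lower in the pooled comparison went from 2 to 1 with the size factors of DESeq2, with library totals alone and without the filter, and ranged from 0 to 1 when single libraries were left out. With sgEZH2-1, leaving out single libraries gave 1 to 2 higher and 1 to 2 lower. With sgEZH2-2 it gave 1 to 2 lower, and library totals alone gave 1. Between the guides it gave 1 to 3 higher, and DESeq2 gave 1. With the longest transcript as length, 2 of the 10 members changed place in the order of the members alone in the controls. Under sgEZH2-1 this was 2 and under sgEZH2-2 it was 6. Library totals alone moved the calls over all genes with sgEZH2-2 from 811 higher and 328 lower to 899 and 197, and the pooled counts from 494 and 78 to 522 and 36.

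Uncalled values of members and other family genes turned sign as follows. With library totals alone, ERBB2 between the guides was -0.0091, ERBB3 pooled 0.022, ERRFI1 with sgEZH2-2 0.026, HBEGF with sgEZH2-1 0.014 and NRG4 pooled 0.0056. With the size factors of DESeq2, ERBB3 pooled was 0.0053, ERRFI1 with sgEZH2-2 0.0012 and HBEGF with sgEZH2-1 0.0039. With DESeq2 itself these were 0.0051, 4.52e-05 and 0.0039. Single libraries left out gave the following ranges. With both guides pooled, the log2 value ran for ERBB2 from -0.019 to 0.093, ERBB3 from -0.043 to 0.026, HBEGF from -0.030 to 0.12 and NRG4 from -0.15 to 0.13. With sgEZH2-1, the log2 value ran for AREG from -0.057 to 0.18, ERBB2 from -0.016 to 0.095, ERBB3 from -0.024 to 0.12, HBEGF from -0.089 to 0.081 and NRG4 from -0.085 to 0.20. With sgEZH2-2, the log2 value ran for BTC from -0.13 to 0.53, EPGN from -0.38 to 0.082, ERBB2 from -0.022 to 0.092, EREG from -0.45 to 0.24, ERRFI1 from -0.14 to 0.13 and NRG4 from -0.21 to 0.071. Between the guides, the log2 value ran for EGFR from -0.075 to 0.013, ERBB2 from -0.035 to 0.062 and HBEGF from -0.18 to 0.0015. No paired analysis was possible because the count columns carry no replicate numbers. A group left with 1 control library is assumed to vary like the other groups. The 2 controls and the low counts of EREG, BTC, EPGN, EGF and NRG2 limit what could be detected.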
